A study of Rattus norvegicus with 120 samples.

Results

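Cholesterol and fatty acid synthesis genes were followed in rat kidney through treatment with 3 immunosuppressive drugs. The set held 34 listed genes of 4 roles, namely the mevalonate steps, the steps from squalene to cholesterol, the sterol sensors with a sterol carrier, and fatty acid synthesis. A gene was read from the probe set that maps to it alone and had the highest mean over all 120 arrays. In this way 33 of the 34 had a probe set, and Hmgcs1 was not analysed here. Scd was among the dimmest 25% of genes and was not tested, which left 32 members among 10663 genes tested.

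The rats were male Sprague-Dawley animals, 5 to 7 weeks old at the start, injected intraperitoneally once a day with olive oil (the vehicle), with cyclosporine A (CsA) at 2.5 mg/kg or 25 mg/kg, with FK506 (tacrolimus) at 0.6 mg/kg or 6 mg/kg, or with rapamycin (Rapa) at 1 mg/kg or 10 mg/kg. They received 1, 7, 14 or 28 daily doses, and the kidneys were removed 24 hours after the last one. CsA and FK506 both inhibit the phosphatase calcineurin, whereas rapamycin inhibits the kinase mTOR, and the study sought early markers of kidney injury by calcineurin inhibitors. Each of the 120 arrays held the kidney RNA of 1 rat, with 4 rats in most of the 28 groups, 3 after 14 doses of FK506 6 mg/kg, and 4 to 6 in each group after 28 doses. Whole pieces of both kidneys were used, so that fewer cells of a type and less RNA per cell cannot be told apart.

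Cells make cholesterol from acetyl-CoA through mevalonate, isoprenoids and squalene, and a related set of enzymes makes fatty acids from the same precursor. Both pathways are switched on by the SREBP transcription factors, which Scap carries out of the endoplasmic reticulum when sterols are scarce and which the Insig proteins hold back when sterols are plentiful. SREBP-2, encoded by Srebf2, acts mainly on sterol genes and SREBP-1, encoded by Srebf1, mainly on fatty acid genes, and mTORC1, the target of rapamycin, is known to promote SREBP activity.

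RefSeq promoter windows, from 250 bases before to 50 bases after a gene's start on the rat assembly GRCr8, were found for 25 of the 32 members. CCAAT, the box bound by NF-Y, an SREBP partner, was searched on both strands and stood in 19 of the 25 windows (76%), beside 37.7% of 27457 rat windows of the same length. GGGCGG, the GC box bound by Sp1, stood in 21 of the 25 (84%), beside 34.9% of all windows and 43.1% of the 18999 windows of protein-coding genes. The E-box CACGTG stood in 4 of the 25 (16%), beside 6.65% of all windows, in Elovl5, Insig1, Sc5d and Scap. The sterol element TCACNCCAC, searched with N as any base, stood in none of the 25 and in 1.13% of all windows, which says only that these letters are not in these windows. The 250 bases before the start are shown for the 6 sterol members with a window that were called in at least 3 comparisons with vehicle. Capitals mark these CCAAT boxes, GC boxes and E-boxes on either strand, so that CCAAT also appears as its reverse complement ATTGG and the GC box as CCGCCC, and the matches are descriptions of letters and not of binding. Mvd lies at chr19:67414975-67415224, Idi1 at chr17:66547525-66547774, Fdps at chr2:176804817-176805066, Tm7sf2 at chr1:212789542-212789791 and Hsd17b7 at chr13:84722755-84723004, all on the minus strand. Dhcr7 lies at chr1:208444184-208444433 on the plus strand, and each is printed 5′ to 3′ along its gene.
Mvd: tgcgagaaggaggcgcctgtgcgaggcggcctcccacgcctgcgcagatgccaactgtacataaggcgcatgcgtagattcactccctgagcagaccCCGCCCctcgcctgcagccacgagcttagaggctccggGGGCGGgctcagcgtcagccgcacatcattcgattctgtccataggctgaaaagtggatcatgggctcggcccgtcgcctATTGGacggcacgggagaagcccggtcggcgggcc
Idi1: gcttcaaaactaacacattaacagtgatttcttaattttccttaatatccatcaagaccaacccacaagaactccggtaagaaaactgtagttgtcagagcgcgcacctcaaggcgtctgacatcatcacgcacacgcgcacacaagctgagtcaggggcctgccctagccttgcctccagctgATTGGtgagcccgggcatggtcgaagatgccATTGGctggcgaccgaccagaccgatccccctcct
Fdps: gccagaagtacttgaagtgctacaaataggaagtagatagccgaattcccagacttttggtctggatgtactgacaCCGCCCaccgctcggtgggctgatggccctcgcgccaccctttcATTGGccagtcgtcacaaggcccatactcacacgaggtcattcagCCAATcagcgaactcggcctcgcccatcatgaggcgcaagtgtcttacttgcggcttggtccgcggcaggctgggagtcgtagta
Tm7sf2: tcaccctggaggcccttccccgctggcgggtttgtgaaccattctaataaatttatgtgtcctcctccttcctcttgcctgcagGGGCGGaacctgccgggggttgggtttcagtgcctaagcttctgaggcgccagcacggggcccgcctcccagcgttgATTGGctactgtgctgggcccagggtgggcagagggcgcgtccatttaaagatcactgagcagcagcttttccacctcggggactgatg
Hsd17b7: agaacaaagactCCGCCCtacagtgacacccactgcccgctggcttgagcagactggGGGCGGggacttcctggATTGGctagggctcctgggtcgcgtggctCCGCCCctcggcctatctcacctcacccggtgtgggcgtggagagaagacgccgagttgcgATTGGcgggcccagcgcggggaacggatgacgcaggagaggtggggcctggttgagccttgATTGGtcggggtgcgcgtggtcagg
Dhcr7: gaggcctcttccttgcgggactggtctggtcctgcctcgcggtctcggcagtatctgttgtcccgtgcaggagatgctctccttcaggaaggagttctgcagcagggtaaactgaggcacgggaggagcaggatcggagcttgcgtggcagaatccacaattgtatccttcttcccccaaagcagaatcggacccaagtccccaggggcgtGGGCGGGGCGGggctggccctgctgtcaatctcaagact
CCAAT occurred 3 times in the Hsd17b7 stretch, 2 times in those of Idi1 and Fdps, once in those of Mvd and Tm7sf2, and not in that of Dhcr7, whose 2 GGGCGG matches overlap.

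Levels are log2(intensity + 16) after quantile normalization, so 1 unit is a 2-fold difference of intensity plus 16, and changes of dim genes are understated. The median intensity of the arrays ran from 51.99 to 86.08 before normalization. The kidney markers Slc34a1 (13.39 to 13.83), Lrp2 (12.85 to 13.35) and Umod (13.32 to 13.98) were high on every array. Alb, the albumin gene made in the liver, had a log2 level above 12 on 4 arrays, marked here as carrying liver RNA: 2 of the 4 rats given a single dose of CsA 25 mg/kg, 1 after 14 doses and 1 after 28 doses of CsA 2.5 mg/kg. Arrays below this limit were not all free of it. Beside a median of 5.65 over all arrays, Alb reached 11.11 in a rat after 14 doses of FK506 6 mg/kg and 10.69 in a vehicle rat of day 28. All 5273 zeros of the table (17% of that array) lay in the third rat given 28 doses of CsA 25 mg/kg. The ratio of the 3′ to the 5′ Gapdh control probe sets, on the log2 scale, was 0.76 in vehicle rats of day 7 and 0.32 in those of day 1. Changes below are log2 differences from the vehicle rats of the same day with the standard error (SE) of the limma fit to all 120 arrays, and "called" means a Benjamini-Hochberg adjusted p under 0.05 over all 10663 genes. "Rose" and "fell" are written of called genes. The comparisons of a day share its vehicle rats, so their values stand side by side and are not independent.

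Across the 24 comparisons with vehicle, calls among the members were mostly falls, and rapamycin gave most of them. Of 768 tests of a member, 54 were called lower (7.03%, beside 2.58% of all tests of a gene) and 4 higher. Rapamycin accounted for 32 of the falls and all 4 rises in its 256 tests (12.5% lower, beside 4.08% for all genes), FK506 for 13 falls (5.08%, beside 1.68%) and CsA for 9 falls (3.52%, beside 1.96%). The falls came after 7 or more doses. In that period 16.7% of the rapamycin tests, 6.77% of the FK506 tests and 4.69% of the CsA tests of a member were called lower, beside 5.07%, 2.24% and 2.61% of all genes. Among the 32 members 20 were called at least once. Of these, 17 were called only lower, Acly and Elovl5 only higher, and Scap in both directions, while 12 were never called. The share of all genes called at least once was not counted, so these counts and those by role below stand without a background. Idi1 and Me1 were called lower in 8 comparisons each, and Mvd, Tm7sf2, Hsd17b7, Srebf2 and Stard4 in 4 each. Of the 58 calls against vehicle, 18 held under every alternative processing and with any single rat left out.

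Rapamycin at 10 mg/kg lowered 7 of 32 members after 7 doses (4.3% of all genes fell), 5 after 14 doses (5.3%) and 8 after 28 doses (8.16%). The median member change was -0.19, -0.12 and -0.15 at those days, while the medians of all genes in the 24 comparisons lay between -0.04 and 0.03. At 1 mg/kg 5 members fell after 7 doses (2.61%), 4 after 14 doses (4.97%) and 3 after 28 doses (5.09%). FK506 6 mg/kg lowered 2 members after 7 doses (1.42%), 2 after 14 doses (1.44%) and 6 after 28 doses (7.29%), the last share of members being 18.8%. At 0.6 mg/kg it lowered 1 member each after 7 (1.03%), 14 (0.497%) and 28 doses (1.74%). CsA 25 mg/kg lowered 3 members after 7 doses (1.8%), 1 after 14 doses (3.14%) and 5 after 28 doses (10.7%). The counts for CsA after 14 and 28 doses were near what the whole array gave, since 5 of 32 is 15.6%. CsA 2.5 mg/kg called no member in any of its 4 comparisons, where at most 0.0656% of all genes were called, and 1 dose of FK506 at 0.6 or 6 mg/kg called none (at most 0.0281%).

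**Figure D1:**
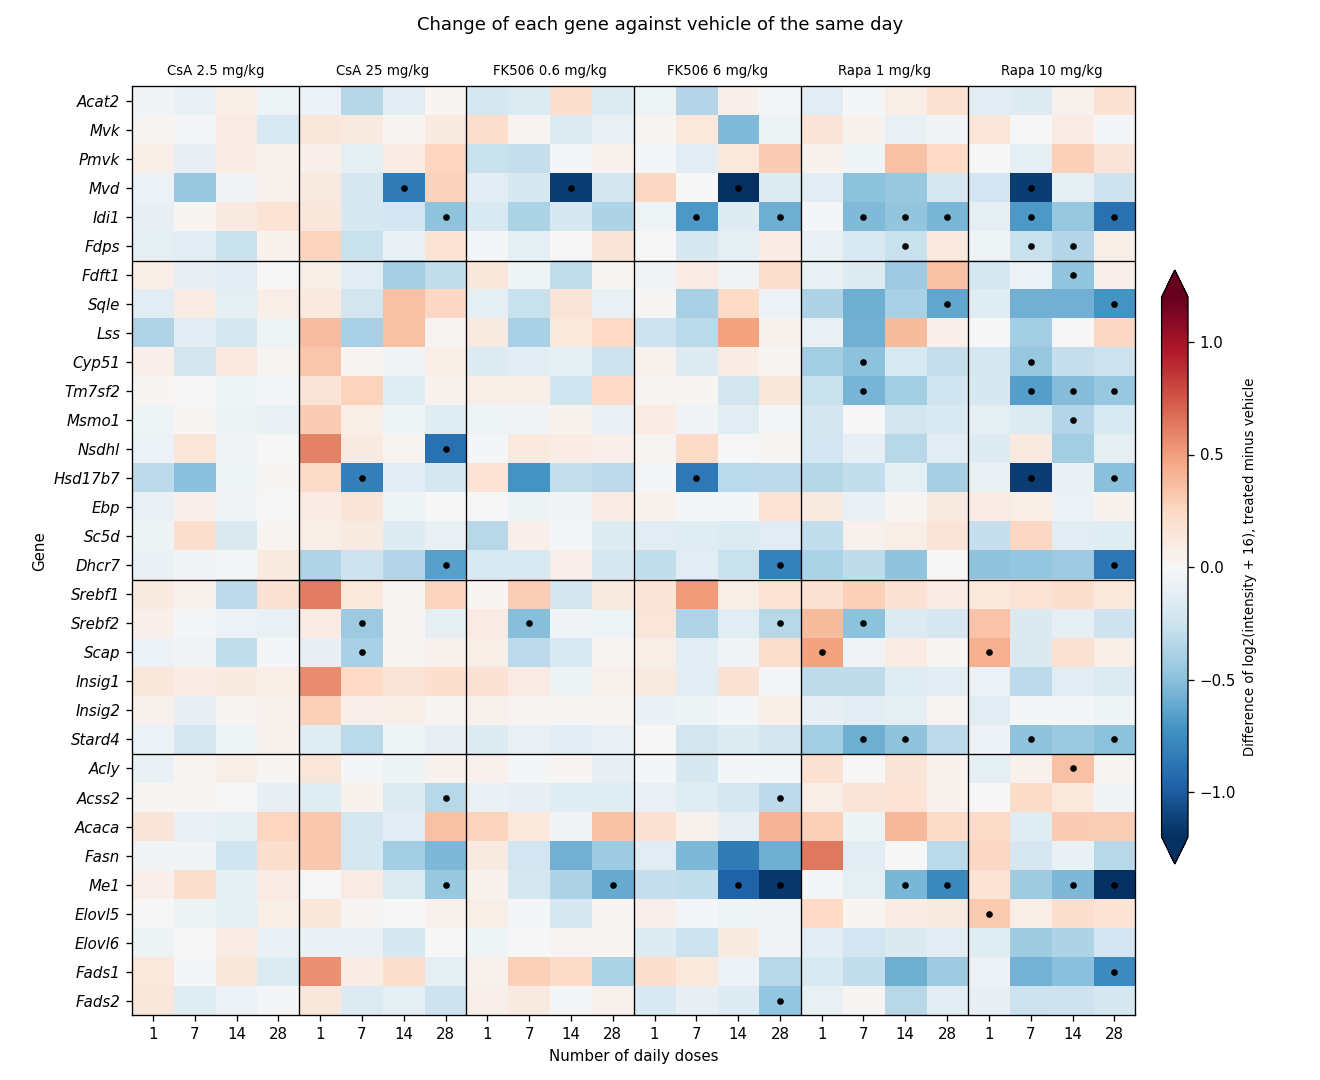
Log2 differences from same-day vehicle for the 32 members tested (rows, by role) in the 24 comparisons (columns, by drug, dose and number of doses), with blue for lower and red for higher on the colour scale and a black dot where limma's adjusted p was under 0.05. The dots gather in the rapamycin columns from 7 doses on (32 falls), and the 4 red cells with a dot are Scap at both rapamycin doses and Elovl5 after 1 dose, and Acly after 14 doses of 10 mg/kg.

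In the mevalonate steps 3 of the 6 members tested fell in at least 1 comparison, and they are late steps of the series. Idi1, the isomerase that makes dimethylallyl diphosphate, had the more regular fall. After 28 doses its log2 levels were 8.79, 8.5, 8.71, 9.11 and 8.43 in the 5 vehicle rats, and those of the 6 rats on rapamycin 10 mg/kg ran from 7.53 to 8.13 with a median of 7.74. All 6 lay below every vehicle rat. The change was -0.90 (SE 0.14, adjusted p = 8.92e-07, limma), which is 53.6% of the vehicle level, with group means of 7.81 ± 0.22 (SD, n = 6) and 8.71 ± 0.27 (SD, n = 5). On rapamycin 1 mg/kg the 6 rats ran from 7.96 to 8.49, 5 of them below all vehicle rats, with a change of -0.545 (SE 0.14, limma adjusted p = 0.00535). FK506 6 mg/kg gave 7.88, 8.06, 8.85, 7.97 and 7.85, so that 4 of 5 rats lay below the vehicle rats and 1 above most of them, and Idi1 fell by 0.585 (SE 0.15, limma adjusted p = 0.0023). CsA 25 mg/kg gave 8.57, 7.90, 8.41 and 8.0, a fall of 0.48 (limma adjusted p = 0.0156) that was lost when the day was fitted alone or when single rats were left out (largest adjusted p = 0.104).

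After 7 doses Idi1 was 9.22, 8.53, 9.07 and 9.15 in vehicle rats, 8.09, 8.42, 8.40 and 8.30 on rapamycin 10 mg/kg and 8.39, 8.12, 8.12 and 8.58 on FK506 6 mg/kg. The rapamycin rats were all below the vehicle rats, and 1 FK506 rat overlapped them. Both changes were -0.69 (SE 0.16), with limma adjusted p of 0.00314 for rapamycin and 0.00642 for FK506, and rapamycin 1 mg/kg gave -0.53 (adjusted p = 0.0406). The Gapdh ratio moved with these groups, at 0.76 in the vehicle rats and 0.40 to 0.44 in all treated groups of the day except CsA 2.5 mg/kg (0.85). When the ratio entered the fit, the Idi1 calls of day 7 ended, at -0.56 (adjusted p = 0.0548) for rapamycin 10 mg/kg, -0.57 (adjusted p = 0.0662) for FK506 6 mg/kg and -0.41 (adjusted p = 0.244) for rapamycin 1 mg/kg. The 7-dose call on rapamycin 1 mg/kg was also lost in 7 of 8 fits with a rat left out. After 14 doses the change on rapamycin 1 mg/kg was -0.47 (adjusted p = 0.0499). This call was lost under 5 of the alternatives and in 7 of 8 fits with a rat left out. The change on 10 mg/kg was -0.46 and missed the threshold (adjusted p = 0.0547), although all 4 rats (8.10, 8.47, 8.28 and 8.22) lay below the vehicle rats (8.66 to 8.85). Idi1's other probe set gave -0.96 for rapamycin 10 mg/kg (adjusted p = 2.94e-05) and -0.51 for FK506 6 mg/kg (adjusted p = 0.0491) after 28 doses, and was not called in the other 6 comparisons.

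Mvd, the diphosphomevalonate decarboxylase that acts just before Idi1, was a dim probe set (28.4th percentile of mean level) with a sporadic pattern. After 7 doses its log2 levels were 6.44, 6.40, 6.22 and 6.52 in vehicle rats and 5.57, 5.68, 5.24 and 4.54 on rapamycin 10 mg/kg, all 4 below the vehicle rats. The fall was 1.14 (SE 0.26, limma adjusted p = 0.00212), to 45.4% of vehicle. FK506 6 mg/kg left Mvd at 6.35, 6.17, 6.57 and 6.49 on that day, within or next to the vehicle range. The order of these drugs turned after 14 doses. Vehicle rats then had 6.71, 5.90, 6.33 and 6.50, the 3 rats on FK506 6 mg/kg 4.44, 4.66 and 5.32, and rapamycin 10 mg/kg 6.25, 6.29, 6.23 and 6.23. All FK506 rats lay below the vehicle rats and the rapamycin rats lay among them. The FK506 change was -1.56 (SE 0.28, limma adjusted p = 0.000201, 34% of vehicle, means 4.81 ± 0.46, n = 3, and 6.36 ± 0.35, n = 4). FK506 0.6 mg/kg (5.69, 5.59, 4.44 and 5.17) gave -1.14 (adjusted p = 0.013), lost in a fit to that day alone (adjusted p = 0.162). CsA 25 mg/kg (5.65, 4.32, 6.25 and 5.82) gave -0.85 (adjusted p = 0.0248), which was -0.456 (adjusted p = 0.322) without its second rat. After 28 doses no group was called, at -0.25 for rapamycin 10 mg/kg and -0.17 for FK506 6 mg/kg. With an offset of 1 in place of 16 the Mvd changes were larger, at -2.50 for FK506 6 mg/kg after 14 doses and -1.68 for rapamycin 10 mg/kg after 7 doses.

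Fdps, which makes farnesyl diphosphate, changed little in size but with small spread. After 14 doses it was 9.37, 9.37, 9.16 and 9.42 in vehicle rats and 8.90, 9.09, 8.91 and 9.00 on rapamycin 10 mg/kg, with no overlap, and the fall was 0.35 (SE 0.09, limma adjusted p = 0.00497). Falls of 0.27 after 7 doses of 10 mg/kg (adjusted p = 0.0499) and after 14 doses of 1 mg/kg (adjusted p = 0.045) were lost under 3 and 5 of the alternative settings. In vehicle rats alone Fdps fell by 0.31 from day 1 to day 28 (SE 0.09, adjusted p = 0.034; 2.08% of all genes called), a call lost with the Gapdh ratio as a covariate. The earlier enzymes were never called. Acat2, which joins acetyl-CoA units, ranged over the 24 comparisons from -0.35 to 0.20, Mvk, mevalonate kinase, from -0.53 to 0.21, and Pmvk, phosphomevalonate kinase, from -0.28 to 0.35.

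**Figure D2:**
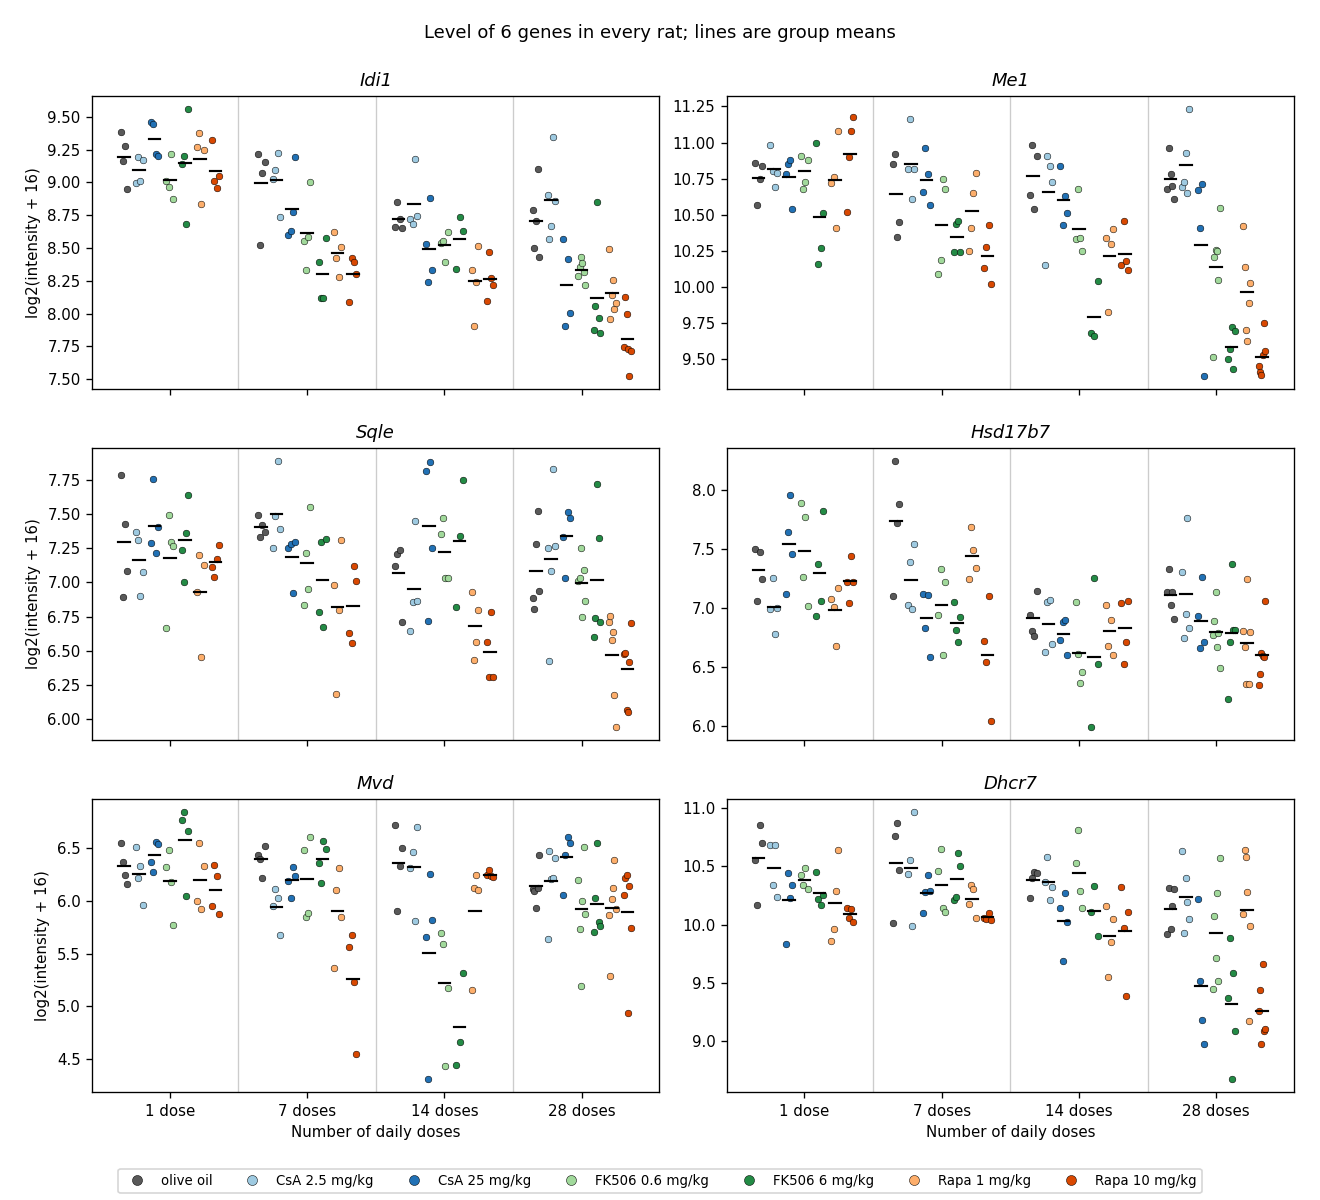
Log2(intensity + 16) of Idi1, Me1, Sqle, Hsd17b7, Mvd and Dhcr7 in every rat, by treatment and number of doses; each point is 1 rat and each short line a group mean. Me1 and Idi1 drop below all 5 vehicle rats in each of the 6 rats given 28 doses of rapamycin 10 mg/kg, and Mvd is low after 7 doses of rapamycin 10 mg/kg (4.54 to 5.68) and after 14 doses of FK506 6 mg/kg (4.44 to 5.32).

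From squalene to cholesterol 8 of 11 members were called lower at least once, and none higher. Sqle, squalene epoxidase, the first oxygen-requiring step of the sterol branch, was called against vehicle in 2 comparisons, both with rapamycin. After 28 doses it was 6.89, 6.80, 7.28, 7.52 and 6.94 in vehicle rats and ran from 6.05 to 6.70, with a median of 6.45, in the 6 rats on rapamycin 10 mg/kg, with no overlap. The change was -0.72 (SE 0.19, limma adjusted p = 0.00446, 60.8% of vehicle). On 1 mg/kg the 6 rats (5.94 to 6.75, median 6.61) also lay below all vehicle rats, with a change of -0.62 (adjusted p = 0.0239), lost in a fit to that day alone or with single rats left out (largest adjusted p = 0.108). CsA 25 mg/kg (7.33, 7.03, 7.51 and 7.47) and FK506 6 mg/kg (6.60, 6.74, 7.72, 7.32 and 6.71) overlapped the vehicle rats. After 14 doses rapamycin 10 mg/kg gave 6.56, 6.31, 6.78 and 6.31 against 7.12, 7.21, 7.23 and 6.71 in vehicle rats, and the difference of -0.58 was not called (limma adjusted p = 0.0829).

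Tm7sf2, a sterol reductase that removes the double bond at C14, was called in 4 comparisons, all with rapamycin. After 7 doses vehicle rats had 8.39, 8.48, 8.24 and 8.35, rapamycin 10 mg/kg 7.82, 7.41, 7.72 and 7.89, and rapamycin 1 mg/kg 7.60, 7.79, 8.01 and 7.84. No rapamycin rat reached the lowest vehicle rat. The falls were 0.66 (SE 0.14, limma adjusted p = 0.00135) and 0.56 (adjusted p = 0.012). In CsA 25 mg/kg the levels were 8.81, 8.54, 8.64 and 8.52 and in FK506 6 mg/kg 8.54, 8.55, 8.34 and 8.13, of which only the last FK506 rat lay below the vehicle rats. On rapamycin 10 mg/kg the falls were 0.52 after 14 doses (adjusted p = 0.00951) and 0.45 after 28 doses (adjusted p = 0.00551), where 4 of 6 rats lay below all vehicle rats. Each of these later calls was lost with a single rat left out, at largest adjusted p of 0.0586 and 0.0694.

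Hsd17b7, which reduces the 3-keto group of sterol intermediates, was lower on day 7 in all higher-dose groups. Vehicle rats had 7.11, 8.25, 7.72 and 7.88, CsA 25 mg/kg 7.12, 6.83, 7.11 and 6.59, FK506 6 mg/kg 7.06, 6.82, 6.71 and 6.92, and rapamycin 10 mg/kg 6.72, 6.54, 7.10 and 6.05. The first vehicle rat was about as low as the highest treated rats, and 2 of the CsA rats were not below it. The falls were 1.14 for rapamycin (SE 0.21, limma adjusted p = 0.000158), 0.86 for FK506 (adjusted p = 0.00927) and 0.82 for CsA (adjusted p = 0.0111). Without the second vehicle rat the FK506 and CsA calls ended (largest adjusted p = 0.0804 and 0.0759), and the rapamycin call held. The second probe set of Hsd17b7 gave -0.38 for rapamycin (adjusted p = 0.56), -1.02 for FK506 (adjusted p = 0.0654) and -0.92 for CsA (adjusted p = 0.0987). After 28 doses of rapamycin 10 mg/kg the change was -0.50 (adjusted p = 0.0459), a call lost under 4 of the alternatives.

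Dhcr7, which carries out the last reduction to cholesterol, fell after 28 doses of all 3 drugs at the higher dose. Vehicle rats had 9.92, 10.31, 9.96, 10.16 and 10.30. The rats on rapamycin 10 mg/kg ran from 8.98 to 9.66 with a median of 9.19, those on FK506 6 mg/kg had 9.37, 9.89, 8.68, 9.58 and 9.09, and those on CsA 25 mg/kg 10.22, 9.51, 9.19 and 8.98. All rapamycin and FK506 rats lay below the vehicle rats, and 1 CsA rat did not. The falls were 0.87 (SE 0.18, limma adjusted p = 0.000251, 54.7% of vehicle), 0.81 (SE 0.19, adjusted p = 0.00129, 57.1%) and 0.66 (SE 0.20, adjusted p = 0.0126). The CsA call ended without the array that holds the zeros (-0.56, adjusted p = 0.0713) and without the fourth rat (-0.49, adjusted p = 0.12). Rapamycin 1 mg/kg left Dhcr7 at 9.18 to 10.64 with a median of 10.19, a difference of -0.01 from vehicle (adjusted p = 0.992).

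Nsdhl, a decarboxylating sterol dehydrogenase, was called lower after 28 doses of CsA 25 mg/kg, and a single array made the call. Its levels were 8.42, 8.15, 4.34 and 7.93 against 7.95 to 8.24 in vehicle rats, and the 4.34 came from the array with the zeros. The change of -0.895 (limma adjusted p = 0.00702) became 0.06 (adjusted p = 0.819) without that array. Cyp51, the sterol C14 demethylase, fell by 0.455 after 7 doses of rapamycin 10 mg/kg (SE 0.13, limma adjusted p = 0.0171) and by 0.49 on 1 mg/kg (adjusted p = 0.0142), each lost with single rats left out (largest adjusted p = 0.0954 and 0.0869). Its other probe set gave -0.26 and -0.21. Msmo1, a sterol C4 methyl oxidase, had 9.13, 9.12, 9.14 and 8.99 in vehicle rats of day 14 and 8.80, 8.74, 8.67 and 8.74 on rapamycin 10 mg/kg, with no overlap and a fall of 0.355 (SE 0.09, limma adjusted p = 0.00589). Fdft1, squalene synthase, fell by 0.48 in the same rats (adjusted p = 0.0364), from 9.92 to 10.20 in vehicle to 9.39 to 9.76, and the call was lost without quantile normalization. Lss, lanosterol synthase (-0.58 to 0.48), Ebp, a sterol isomerase (-0.09 to 0.16), and Sc5d, a sterol desaturase (-0.33 to 0.25), were not called in any comparison with vehicle.

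Among the sensors and carriers Srebf2, the gene of SREBP-2, fell in 3 groups of day 7. Vehicle rats had 8.70, 8.72, 8.81 and 8.54, CsA 25 mg/kg 8.28, 8.43, 8.08 and 8.24, FK506 0.6 mg/kg 8.22, 8.34, 8.03 and 8.16, and rapamycin 1 mg/kg 8.16, 8.23, 8.16 and 8.27, with no overlap. The falls were 0.44 (limma adjusted p = 0.0335), 0.51 (adjusted p = 0.0198) and 0.49 (adjusted p = 0.0138). FK506 6 mg/kg lowered it by 0.34 after 28 doses (SE 0.12, adjusted p = 0.0321). All 4 calls were lost with the Gapdh ratio as a covariate (adjusted p = 0.147 for rapamycin 1 mg/kg), and the vehicle rats of day 7 stood 0.34 above those of day 1 (adjusted p = 0.122), a comparison in which no member was called (3.89% of all genes).

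Scap, the escort of the SREBPs, rose after 1 dose of rapamycin, where 1.97% of all genes rose at 1 mg/kg and 1.7% at 10 mg/kg. Vehicle rats had 8.53, 8.78, 8.49 and 8.55, rapamycin 1 mg/kg 9.17, 8.83, 9.15 and 9.15, and 10 mg/kg 8.89, 8.96, 8.97 and 9.24. No rat overlapped. The rises were 0.49 (SE 0.11, limma adjusted p = 0.00384) and 0.43 (adjusted p = 0.0122). A second and dimmer Scap probe set (mean level 5.94) moved the opposite way, by -0.76 (adjusted p = 0.032) and -1.16 (adjusted p = 0.000281). The Gapdh ratio was 0.68 and 0.73 in these groups and 0.32 in their vehicle rats, and with it as a covariate the rises were not called (adjusted p = 0.178 and 0.428). Scap was lower by 0.39 after 7 doses of CsA 25 mg/kg (adjusted p = 0.0219, and 0.189 at most under the alternatives, lost with the Gapdh ratio), where the second probe set gave 0.50. The direction of Scap is therefore given for its brighter probe set alone.

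Stard4, a carrier of cholesterol between membranes, was called in 4 comparisons with vehicle, all with rapamycin. After 28 doses of 10 mg/kg the 6 rats ran from 6.30 to 7.04 with a median of 6.74 against 7.31, 7.53, 7.15, 7.19 and 6.81 in vehicle rats, and 5 of 6 lay below all of these. The fall was 0.49 (SE 0.13, limma adjusted p = 0.00521). Set against the other drugs on that day, Stard4 stood 0.40 higher with CsA 25 mg/kg (adjusted p = 0.036) and 0.28 higher with FK506 6 mg/kg, which was not called (95% interval 0.01 to 0.54). After 7 doses of 1 mg/kg the levels were 6.75, 7.05, 7.12 and 6.70 against 7.33 to 7.74 in vehicle rats, with a fall of 0.59 (adjusted p = 0.0149, and 0.0852 at most under the alternatives). The 7-dose call at 10 mg/kg (-0.48, adjusted p = 0.0415) and the 14-dose call at 1 mg/kg (-0.48, adjusted p = 0.0365) were lost under some alternatives, and its other probe sets gave only -0.23 and -0.03 for 28 doses of 10 mg/kg. Srebf1, the gene of SREBP-1, ranged from -0.31 to 0.61, Insig1 from -0.32 to 0.57 and Insig2 from -0.14 to 0.29 over the 24 comparisons, without a call. Insig1 was below vehicle in all 8 rapamycin comparisons and Srebf1 in none, differences that did not pass the test.

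In fatty acid synthesis 4 of 9 members tested were called lower at least once, and Me1, malic enzyme, which supplies NADPH, had the lowest p-value of any member. After 28 doses vehicle rats had 10.68, 10.96, 10.78, 10.70 and 10.61. The 6 rats on rapamycin 10 mg/kg ran from 9.39 to 9.75 with a median of 9.49, and FK506 6 mg/kg gave 9.50, 9.57, 9.72, 9.43 and 9.70. Neither group overlapped the vehicle rats. The change was -1.23 for rapamycin (SE 0.15, limma adjusted p = 2.66e-09, 42.7% of vehicle, means 9.52 ± 0.13, n = 6, and 10.75 ± 0.13, n = 5) and -1.16 for FK506 (SE 0.16, adjusted p = 4.99e-08, 44.7%). Rapamycin 1 mg/kg (9.62 to 10.42, median 9.96) gave -0.78 (adjusted p = 0.000207) and FK506 0.6 mg/kg (9.52 to 10.55, median 10.23) -0.61 (adjusted p = 0.00899), and each of these 12 rats was below all vehicle rats. The FK506 0.6 mg/kg call was lost in a fit to that day alone (adjusted p = 0.0592) and without its first rat (-0.48, adjusted p = 0.0555). CsA 25 mg/kg gave 10.67, 10.41, 10.71 and 9.39, a fall of 0.45 (adjusted p = 0.043) that was -0.15 (adjusted p = 0.619) without the fourth rat.

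Me1 was already lower after 14 doses, at 9.68, 9.66 and 10.04 on FK506 6 mg/kg against 10.64, 10.98, 10.54 and 10.91 in vehicle rats, a fall of 0.97 (SE 0.19, limma adjusted p = 0.000892, 50.9% of vehicle). Rapamycin gave -0.55 at 1 mg/kg (10.34, 9.83, 10.30 and 10.40, adjusted p = 0.0346) and -0.54 at 10 mg/kg (10.15, 10.46, 10.18 and 10.12, adjusted p = 0.0357), also with no overlap, and these were lost under some alternatives. The second Me1 probe set was lower and called in all 8 comparisons in which the first was called, with -1.05 for rapamycin 10 mg/kg (adjusted p = 1.28e-07) and -1.08 for FK506 6 mg/kg after 28 doses.

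The desaturases and the acetyl-CoA enzymes moved less. Fads1, the delta-5 desaturase, was 9.33, 9.90, 9.64, 9.55 and 9.46 in vehicle rats of day 28 and ran from 8.63 to 9.17 with a median of 8.74 on rapamycin 10 mg/kg, with no overlap and a fall of 0.76 (SE 0.18, limma adjusted p = 0.00121). Fads2, the delta-6 desaturase, fell by 0.47 after 28 doses of FK506 6 mg/kg (adjusted p = 0.0308), from 7.5 to 8.33 in vehicle rats to 7.10 to 7.69, a call lost in a fit to that day alone. Acss2, an acetyl-CoA synthetase and among the brightest genes on the array (99.3rd percentile), fell by 0.34 with CsA 25 mg/kg (adjusted p = 0.00251; 12.95, 12.52, 12.49 and 12.53) and by 0.32 with FK506 6 mg/kg (adjusted p = 0.00336; 12.74, 12.77, 12.32, 12.66 and 12.70), against 13.10, 12.73, 13.01, 12.94 and 13.00 in vehicle rats. In each group 3 rats lay below all vehicle rats, and both calls were lost in a fit to that day alone (adjusted p = 0.0596 and 0.0669).

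Elovl5, a fatty acid elongase, rose by 0.32 after 1 dose of rapamycin 10 mg/kg (limma adjusted p = 0.0049), with 11.21, 11.24, 11.25 and 11.13 against 10.99, 10.93, 10.78 and 10.86. Its second probe set fell by 0.58 (adjusted p = 0.0298), and the Gapdh ratio as a covariate ended the call (adjusted p = 0.0884). Acly, ATP citrate lyase, rose by 0.35 after 14 doses of rapamycin 10 mg/kg, where 5.19% of all genes rose (adjusted p = 0.0459; 10.31, 10.12, 10.29 and 10.33 against 9.85 to 10.00). This call was lost under 4 of the alternatives.

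Acaca and Fasn, the enzymes that build the fatty acid chain, and Elovl6, which lengthens it, were never called. Elovl6 was below vehicle in all 8 rapamycin comparisons, with a lowest difference of -0.43 (limma adjusted p = 0.0864). Acaca ranged from -0.20 to 0.41 and Fasn from -0.84 to 0.63. The lowest Fasn value belonged to 14 doses of FK506 6 mg/kg, where 3 rats had 8.41, 8.58 and 8.43 against 9.21, 9.28, 9.76 and 9.00 in vehicle rats (limma adjusted p = 0.0726). Scd, the stearoyl-CoA desaturase, had levels from 4.12 to 9.56, and without the filter on dim genes its differences from vehicle ran from -1.45 to 1.54 with no adjusted p under 0.285.

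Scd, Acaca and Fasn moved with the level of fat cell markers on the same array. Over the 116 arrays with log2 Alb not above 12, each value taken as the deviation from its group mean, the mean of the adipocyte markers correlated with Scd at r = 0.81 (rho = 0.70), with Acaca at r = 0.65 (rho = 0.46) and with Fasn at r = 0.60 (rho = 0.43). The permutation p of each r was 1e-05, the smallest that 100000 permutations within groups can give, and the Benjamini-Hochberg value over the 10 fatty acid members was 3.33e-05. Those of rho were 1e-05 (adjusted 1e-04), 7e-05 (adjusted 0.000267) and 8e-05 (adjusted 0.000267). Without the 2 arrays farthest from the median r was 0.76, 0.56 and 0.51. For Me1 r was 0.22 (rho = 0.21; permutation p = 0.0346, adjusted 0.0865), and for Acly 0.25 (rho = 0.16; adjusted 0.161). The other members had r of 0.14 (Acss2), 0.03 (Elovl6), -0.06 (Fads2), -0.08 (Fads1) and -0.09 (Elovl5), with adjusted permutation p of 0.212 or more. The summed adipocyte markers ran from 999.6 to 1565 in vehicle rats of day 28, from 651.2 to 978.5 on CsA 25 mg/kg, from 683 to 1577 on FK506 6 mg/kg and from 800.2 to 1013 on rapamycin 10 mg/kg, and 1 of the 6 markers tested was called lower in each of these groups. With the adipocyte marker level as a covariate, Me1 after 28 doses stood at -1.21 for rapamycin 10 mg/kg (limma adjusted p = 2.55e-09), -1.14 for FK506 6 mg/kg (adjusted p = 5.09e-08) and -0.43 for CsA 25 mg/kg, no longer called (adjusted p = 0.0516).

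**Figure D3:**
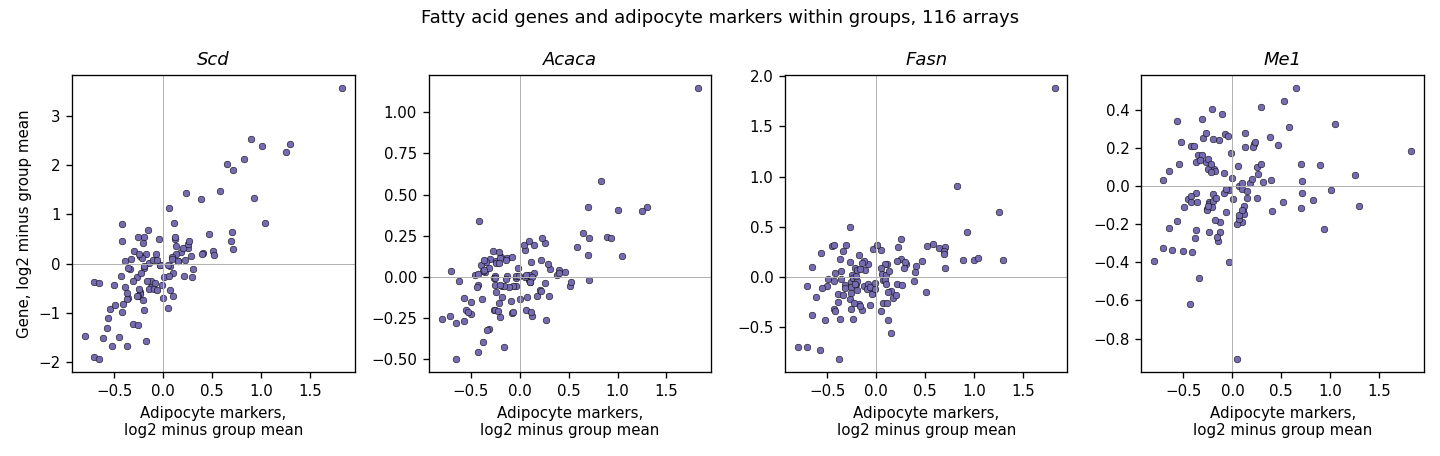
Level of Scd, Acaca, Fasn and Me1 (y axis, log2, minus the group mean) against the mean level of the adipocyte markers (x axis, log2, minus the group mean) on 116 arrays, 1 point per rat. Scd (r = 0.81), Acaca (r = 0.65) and Fasn (r = 0.60) rise along the axis, while Me1 (r = 0.22) is spread nearly evenly.

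Set side by side after 28 doses at the higher doses, Me1, Idi1 and Dhcr7 fell with each drug, and Sqle and Tm7sf2 differed between them. With CsA the calls of Me1, Idi1 and Dhcr7 were each lost without the fourth rat, and each in a fit to that day alone. CsA and rapamycin differed in 9 members (7 higher and 2 lower with CsA; 19.9% of all genes called), FK506 and rapamycin in 4 (2 and 2; 11%), and CsA and FK506 in 3 (1 higher and 2 lower with CsA; 5.7%). Sqle stood 0.97 higher with CsA than with rapamycin (SE 0.20, limma adjusted p = 0.000219) and 0.65 higher with FK506 (SE 0.19, adjusted p = 0.0153), the latter lost with the hybridization control level as a covariate (adjusted p = 0.339). Tm7sf2 stood 0.49 higher with CsA (adjusted p = 0.00371) and 0.59 higher with FK506 (adjusted p = 0.000382, and 0.328 with that covariate). The mean hybridization control level moved with the FK506 group, at 9.15 ± 1.04 (SD, n = 5) against 10.67 in the vehicle rats. At the lower doses of that day it was 9.66 ± 1.2 (SD) on rapamycin 1 mg/kg and 10.38 ± 0.41 (SD) on FK506 0.6 mg/kg. Me1 stood 0.78 higher with CsA than with rapamycin (adjusted p = 0.000195) and 0.71 higher than with FK506 (adjusted p = 0.00411, lost under 3 alternatives). The other members higher with CsA than with rapamycin were Fads1 (0.65, adjusted p = 0.0094), Idi1 (0.415, adjusted p = 0.0362), Stard4 (0.40) and Cyp51 (0.34), and all 4 calls were lost without the array with zeros. Acss2 was 0.31 lower with CsA and 0.29 lower with FK506 than with rapamycin, and Elovl5 0.19 lower with FK506, each lost in a fit to that day alone. Fdft1 was 0.51 lower with CsA than with FK506, and this call and those of Nsdhl were also lost without the array with zeros. Between FK506 and rapamycin, Me1 differed by 0.07 (95% interval -0.24 to 0.37), Dhcr7 by 0.06 (-0.30 to 0.43) and Idi1 by 0.31 (0.04 to 0.59, adjusted p = 0.14), none of them called.

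**Figure D4:**
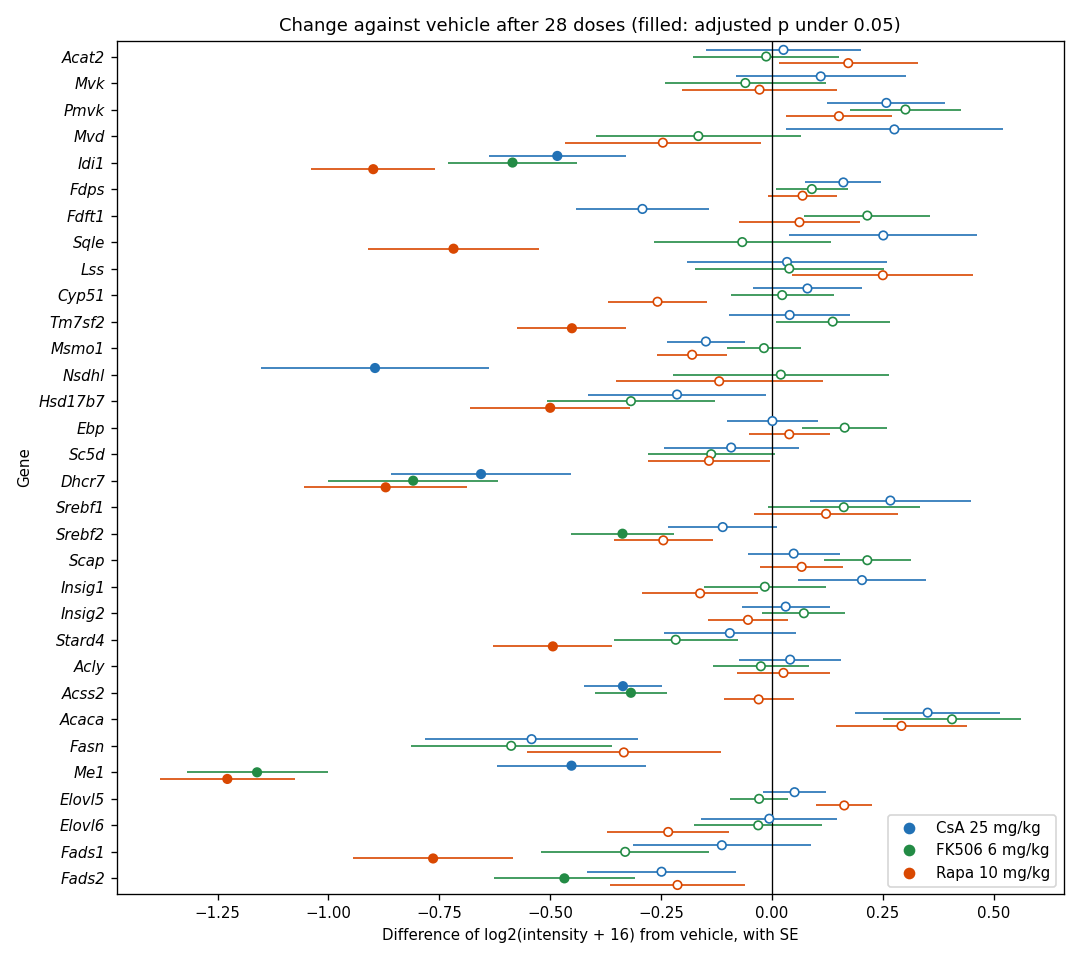
Log2 differences from vehicle of the 32 members (rows) after 28 doses of CsA 25, FK506 6 and rapamycin 10 mg/kg (colours), with bars of 1 SE and filled points where limma's adjusted p was under 0.05. Me1, Idi1 and Dhcr7 lie left of 0 for all 3 drugs, whereas Sqle (-0.72) and Tm7sf2 (-0.45) are filled for rapamycin alone.

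On the earlier days the same direct comparisons gave other members. After 1 dose CsA and rapamycin differed in 6 members (6.64% of all genes called), with Scap 0.52 lower under CsA (SE 0.11, limma adjusted p = 0.000659). Insig1 (0.64), Cyp51 (0.54), Msmo1 (0.42), Insig2 (0.41) and Fdps (0.32) were higher with CsA, and all 5 calls ended without the arrays that carry liver RNA. FK506 and rapamycin differed only in Elovl5 (-0.26; 1.56%), a call lost under 4 alternatives and with any of the 8 rats left out, and CsA and FK506 in none (0.694%). After 7 doses 7 members were higher with CsA than with rapamycin and none lower (9.43%). Tm7sf2 led these at 0.92 (SE 0.14, adjusted p = 1.8e-06). Mvd (0.94), Fads1 (0.66), Insig1 (0.55), Me1 (0.53) and Idi1 (0.50) followed, each lost under some alternative, and Cyp51 stood 0.47 higher (adjusted p = 0.00944). FK506 and rapamycin differed in 4 members on that day (6.44%), with Mvd 1.14 higher (adjusted p = 0.00193) and Tm7sf2 0.68 higher with FK506 (adjusted p = 0.000759). Fads1 was also higher with FK506 and Acss2 lower, each lost under some alternative. CsA and FK506 differed in none after 7 doses (0.938%) and in Me1 alone after 14 doses (1.97%), which was 0.81 higher with CsA (adjusted p = 0.00863, and 0.0657 at most with a rat left out). After 14 doses CsA and rapamycin differed in 8 members (14.7%), with Sqle 0.92 higher with CsA (limma adjusted p = 0.00178). Fads1, Fdps and Msmo1 were also higher with CsA, while Mvd, Acly, Acss2 and Elovl5 were lower, each lost under some alternative. FK506 and rapamycin differed in 4 members (9.41%), with Mvd 1.44 lower under FK506 (SE 0.28, limma adjusted p = 0.000134). Acss2 and Elovl5 were also lower under FK506 and Sqle was higher, each lost under some alternative. Of the 47 calls between drugs 10 held under every alternative: Tm7sf2 for CsA against rapamycin after 7 and 28 doses and for FK506 against rapamycin after 7 doses, Sqle for CsA against rapamycin after 14 and 28 doses, Mvd for FK506 against rapamycin after 7 and 14 doses, and Me1 after 28 doses, Cyp51 after 7 and Scap after 1, each for CsA against rapamycin.

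Higher and lower doses of a drug differed in few members. After 28 doses of CsA 6 members were lower at 25 than at 2.5 mg/kg (18.4% of all genes called), among them Dhcr7 (-0.77, limma adjusted p = 0.00379), Fasn (-0.74, adjusted p = 0.0216), Idi1 (-0.65, adjusted p = 0.0013), Me1 (-0.55, adjusted p = 0.0131) and Acss2 (-0.24, adjusted p = 0.0441). The sixth, Nsdhl, had a difference of -0.90 that became 0.06 without the array with the zeros. Of the 6 calls that of Idi1 held under every alternative tried, but no rat on 2.5 mg/kg was left out singly. Without the fourth rat on CsA 25 mg/kg the difference of Me1 was -0.25 (adjusted p = 0.375). No member differed between the CsA doses after 7 doses (2.55%), and after 14 doses Mvd was lower at the higher dose (-0.81, adjusted p = 0.0436; 5.57%), which was -0.415 (adjusted p = 0.44) without the second rat on 25 mg/kg and lost under 4 alternatives. FK506 gave none after 7 doses (0.00938%) or 14 doses (0.0844%) and 1 after 28 doses (1.62%), Me1 (-0.55, adjusted p = 0.0361). The Me1 call was lost under 3 alternatives and in 8 of 11 fits with a rat left out. Rapamycin gave 1, Dhcr7 after 28 doses (-0.87, adjusted p = 0.0346, beside 0.122% of all genes). The Dhcr7 call was lost in a fit to that day alone, with the hybridization control level as a covariate and in 6 of 12 fits with a rat left out. Between the rapamycin doses Me1 (-0.45), Idi1 (-0.35) and Sqle (-0.10) did not differ by the test after 28 doses.

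A single dose of CsA 25 mg/kg left 26 of 32 members above the vehicle mean, with a median of 0.14, but none was called (0.675% of all genes were). Without the first rat 4 members were called and without the second 2, neither of these rats carrying liver RNA. In this group 2 of 4 rats carried liver RNA, with log2 Alb of 14.49 and 14.38, and 8 of the 9 liver markers tested rose, with a median of 2.66. The members that stood highest did so in those 2 rats. Srebf1 had 9.01 and 8.77 in them and 8.09 and 7.82 in the other two, against 7.69 to 7.95 in vehicle rats. Nsdhl had 9.39 and 9.44 against 8.46 and 8.48, with 8.27 to 8.42 in vehicle rats. Insig1 had 9.55 and 9.28 against 8.57 and 8.88, and Fads1 10.05 and 10.22 against 9.62 and 9.51. Without the arrays that carry liver RNA 21 members lay above the vehicle mean and their median was 0.08, with no member called among 5 genes called in all. Against 2.5 mg/kg a single dose of 25 mg/kg raised Fdps by 0.38 (limma adjusted p = 0.0152) and Msmo1 by 0.35 (adjusted p = 0.0423), beside 0.6% of all genes called, and both were lost without these arrays.

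**Figure D5:**
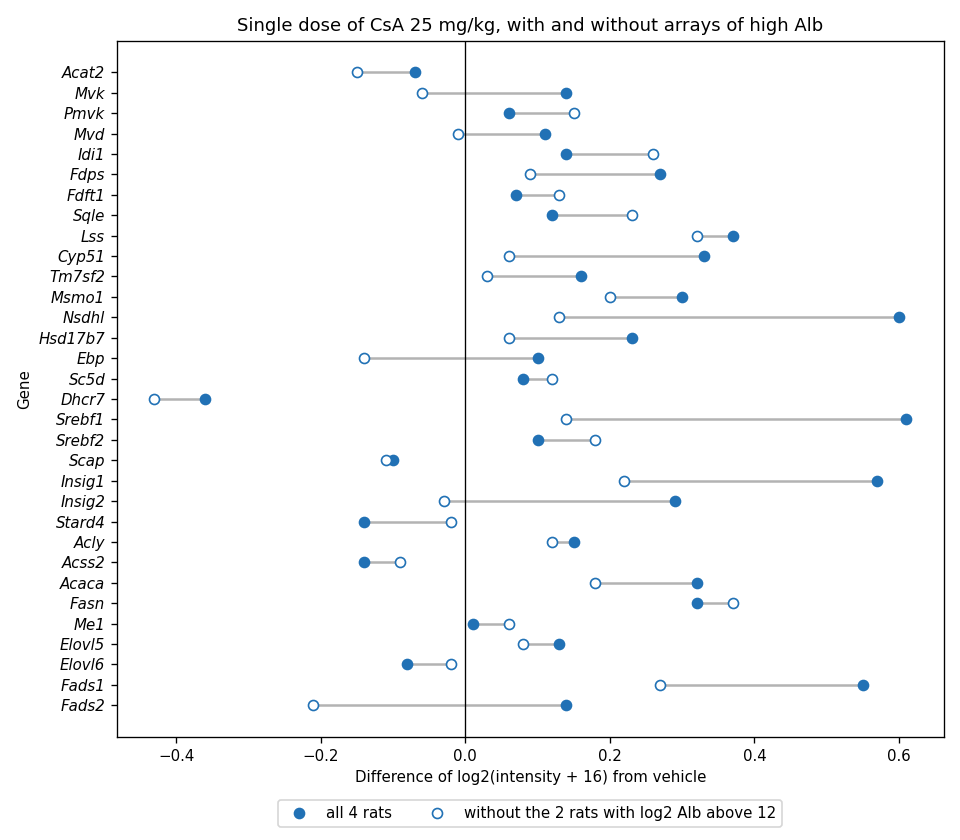
Log2 difference from vehicle of the members after 1 dose of CsA 25 mg/kg, with all 4 rats and without the 2 rats whose log2 Alb was above 12. Most members lie above 0 with all rats (26 of 32), fewer without the 2 rats (21 of 32), and the median falls from 0.14 to 0.08.

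Markers of kidney cells moved with the same groups after 28 doses. All 5 tubular injury markers rose with CsA 25 mg/kg (median 2.21) and with FK506 6 mg/kg (median 1.91), and 1 of 5 rose with rapamycin 10 mg/kg (median 0.64). Their summed intensity ran from 2965 to 5404 in vehicle rats, from 18200 to 24480 on CsA, from 10470 to 27740 on FK506 and from 6078 to 10740 on rapamycin. Of the 6 proximal tubule markers 2 fell with CsA (median -0.17), 1 with rapamycin (median -0.08) and none with FK506 (median -0.03), with sums of 38160 to 42970 in vehicle rats, 32230 to 37380 on CsA, 35310 to 40360 on FK506 and 35820 to 40490 on rapamycin. Of 6 markers of other nephron segments 3 fell with CsA and with FK506 and none with rapamycin. These were the distal tubule gene Calb1 (-3.39 and -3.04), Slc12a3, the thiazide-sensitive cotransporter (-1.76 and -1.72), and Umod of the thick ascending limb (-0.26 and -0.25, limma adjusted p = 0.00112 and 0.00162). The summed intensity of this list was 26090 to 30640 in vehicle rats, 17600 to 20820 on CsA and 17790 to 21120 on FK506, with no overlap, and 24140 to 31560 on rapamycin. Summed macrophage markers were 1019 to 1399 in vehicle rats, 1906 to 3998 on CsA, 1460 to 2444 on FK506 and 739.7 to 1173 on rapamycin. Of the 5 adrenal cortex genes on the array, Star (4.10 to 6.66, median 4.99), Cyp11a1 (4.19 to 7.49, median 5.54) and Cyp11b1 (4.06 to 5.55, median 4.55) were among the dimmest 25% of genes by mean level. Cyp21a1 (4.58 to 7.42, median 5.85) and Mrap (7.15 to 9.61, median 8.725) were not. The part of these cell markers in the falls of Me1, Idi1 and Dhcr7 was not tested.

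Other genes of the pathways changed in both directions. After 28 doses 8.16% of all genes fell with rapamycin 10 mg/kg, 10.7% with CsA 25 mg/kg and 7.29% with FK506 6 mg/kg. The shares of all genes that rose are not given here, so the counts of rises below stand without a background. Of 11 further sterol genes tested, none was called after 28 doses of rapamycin 10 mg/kg. With CsA 25 mg/kg 3 rose, among them Soat1, which esterifies cholesterol (0.42, limma adjusted p = 0.00329), and Npc2, which exports it from lysosomes (0.38, adjusted p = 0.00631). With FK506 6 mg/kg 2 rose, Npc2 (0.32) and Soat1 (0.31). Of 16 further fatty acid genes, 4 fell and 1 rose with rapamycin 10 mg/kg. Fabp5, a fatty acid binding protein (-0.76, adjusted p = 0.00359), Elovl1, an elongase of very long chains (-0.41, adjusted p = 6.08e-05), and Slc25a1, the mitochondrial citrate carrier (-0.32, adjusted p = 0.000482), had the largest falls, while Acsl3, an acyl-CoA synthetase, rose by 0.42 (adjusted p = 0.0015). With CsA 2 rose and 2 fell, Fabp5 by -1.01 (adjusted p = 0.000365), and with FK506 Elovl1 fell by 0.37 (adjusted p = 0.00053) and Acsl5 rose by 0.36. Of 6 targets and genes of the liver X receptors, Mylip, a ubiquitin ligase induced by these receptors, rose with rapamycin 10 mg/kg (0.59, adjusted p = 0.00158), with 1 mg/kg (0.52) and with CsA (0.43), and Abcg1, a cholesterol exporter, rose with CsA (0.58, adjusted p = 0.00785).

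Within groups most pairs of members varied together only weakly from rat to rat. The median correlation between pairs of 17 sterol members, after the group means were taken off, was 0.05 over all 120 arrays, beside 0.06 among 9 fatty acid members, 0.03 between the sets and 0.003 between 534 genes of the whole array. Single pairs stood higher over the 116 arrays with log2 Alb not above 12, led by Acaca with Fasn (r = 0.63, rho = 0.46), Cyp51 with Msmo1 (r = 0.57, rho = 0.50) and Idi1 with Sqle (r = 0.52, rho = 0.48). These values are descriptions, since all pairs share the same arrays and their RNA quality.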

How the data were processed

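Kidney RNA of 120 rats in 28 groups was measured on Affymetrix rat genome arrays, 1 per rat. Deposited were linear intensities per probe set. Per the labels, the authors read these intensities with the Genechip Operating Software, and the summary method and scaling are not given in the sources used here. An offset of 16 was added, the log2 was taken and the 31099 probe sets were quantile normalized. Of these 20826 carry 1 gene symbol in the platform annotation, 436 several, 9780 none and 57 are controls. The brightest probe set of each of 14217 genes was kept, and the 3554 dimmest genes were left out.

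All arrays entered a single limma 3.58.1 fit (R 4.3.3) that gave each group its own mean, on 92 residual and 2.96 prior degrees of freedom. P-values are two-sided, with Benjamini-Hochberg adjustment within each of 63 comparisons: 24 with vehicle, 12 between drugs at the higher doses, 12 between doses, 3 between days of vehicle and 12 of effects between days. The code was tested on simulated data. Precision is limited by how many rats each group held, since arrays give no counts. The p-values rest on the spread between rats within groups, 1 array each, pooled per gene over all 28 groups and moderated by the prior, and not on the compared groups alone.

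The members and lists were chosen with earlier results of these data known. Members called in a described comparison are named. Values of single rats, or the range of a group, are given for members called in 4 or more comparisons with vehicle or with the largest change of their role. Of the other pathway genes at most 3 per list and comparison are named. Alternatives were to skip quantile normalization, to set the offset to 1, to keep dim genes, to keep probe sets apart, a fit to 1 day, leaving out arrays with liver RNA, the array with zeros or each rat, and the Gapdh ratio, the hybridization control level or (added after seeing the data) the adipocyte marker level as a covariate. Promoters came from RefSeq tables of GRCr8.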

Additional observations from a re-analysis of the deposited data

Results flagged for a closer look

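Some effects of a drug differed between days by a direct test in the limma model. For rapamycin 10 mg/kg, the change of Me1 was 1.39 lower after 28 doses than after 1, written as a difference of -1.39 (Benjamini-Hochberg adjusted p = 2.54e-05), that of Idi1 differed by -0.79 (adjusted p = 0.0143) and that of Srebf2 by -0.58 (adjusted p = 0.0244), where 5.54% of all genes were called. From day 1 to day 7 its effects on Hsd17b7 and Scap differed by -1.05 (adjusted p = 0.0254) and -0.60 (adjusted p = 0.0109), with 4.07% of all genes called. For FK506 6 mg/kg the effect on Mvd differed by -1.81 between 14 doses and 1 (adjusted p = 0.0179; 0.141%) and that on Me1 by -0.89 between 28 doses and 1 (adjusted p = 0.0196; 3.3%). For CsA 25 mg/kg, Fdps differed by -0.53 between 7 doses and 1 (adjusted p = 0.0254; 0.375%), and Msmo1 by -0.45 (adjusted p = 0.0222) and Nsdhl by -1.49 (adjusted p = 0.00849) between 28 doses and 1 (4.97%). Of these 10 differences, that of Me1 under rapamycin was kept under every alternative. Those of Fdps, Msmo1 and Nsdhl were lost without the arrays that carry liver RNA (Nsdhl -1.02), and that of Nsdhl also without the array with zeros (-0.54, adjusted p = 0.0779). The calls were also lost for Hsd17b7, Idi1, Srebf2 and Scap with the Gapdh ratio as a covariate, and for Me1 under FK506 with the hybridization control level.

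A rat stood apart from its group in the mean of a role, taken as the log2 difference from the mean of the vehicle rats of the same day. This was so in 4 of 108 pairs of a role and a group, and chance flags about 1 in 20. The same rats enter once for each role, so the 108 are not independent. In the mevalonate mean the fourth vehicle rat of day 28 was at 0.15, with the others from -0.08 to -0.01. In the fatty acid mean, after 14 doses, the third rat on CsA 2.5 mg/kg was at 0 (others -0.06 to -0.05), the second on CsA 25 mg/kg at -0.29 (others -0.07 to -0.04) and the second on FK506 0.6 mg/kg at 0.04 (others -0.18 to -0.16).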

How the results depend on the processing

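The 58 calls of a member against vehicle kept their direction under the alternatives, except that of Nsdhl after 28 doses of CsA 25 mg/kg, which became 0.06 without the array with zeros (0.04 against FK506 6 mg/kg, 0.18 against rapamycin 10 mg/kg and 0.058 against CsA 2.5 mg/kg). With each rat except those on CsA 2.5 mg/kg left out in turn, these 4 differences of Nsdhl ran from -1.298 to 0.06, from -1.318 to 0.04, from -1.179 to 0.18 and from -1.30 to 0.058. Calls lost numbered 18 in fits to a single day, 15 with the Gapdh ratio, 8 without the filter on dim genes, 6 without quantile normalization, 3 with probe sets kept apart, 3 with the adipocyte markers, 2 without arrays carrying liver RNA, 1 without the array with zeros, 1 with the hybridization control and 0 with an offset of 1. The largest shift of the median of all genes without quantile normalization was 0.03.

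The number of members called for CsA 25 mg/kg after 1 dose went from 0 to 1 without quantile normalization, without the filter on dim genes, with the Gapdh ratio and with the hybridization control, and to 2 without the array with zeros. In a fit to the day alone it went from 1 to 0 after 14 doses and from 5 to 1 after 28 doses, and without the array with zeros from 5 to 3. With the Gapdh ratio it went from 2 to 0 after 1 dose of rapamycin 10 mg/kg and from 2 to 1 after 7 doses of FK506 6 mg/kg. With single rats left out (99 fits, over groups in which a member was called and the higher doses), the counts after 1, 7, 14 and 28 doses ran from 0 to 4, 0 to 3, 0 to 1 and 2 to 5 for CsA 25 mg/kg. They ran from 0 to 0, 1 to 2, 2 to 3 and 4 to 6 for FK506 6 mg/kg, and from 1 to 2, 4 to 7, 3 to 8 and 6 to 10 for rapamycin 10 mg/kg. Without replicate 4 of the CsA 25 mg/kg group the count was 0 after 7 doses and 2 after 28 doses. Of the 58 calls 25 were kept in all of these fits. The cause was not tested. No paired analysis was possible because the replicate numbers only name rats and every group held different rats. Levels near the offset, as of Mvd and Scd, give the least reliable changes.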
